A study of Mus musculus with 10 samples.

Results

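The apoptosis, TNF receptor and caspase genes were compared between tuft cells of the inflamed mouse pancreas and the rest of its epithelium. They were chosen by symbol only, as every gene in the table whose symbol starts with Casp, Birc, Traf or Ripk and a digit, or with Bcl2, Tnfrsf, Tnfsf or Naip, together with Bax, Bak1, Bid, Bik, Mcl1, Xiap, Fadd, Tradd and Cflar. This gave 60 genes out of 12160 listed. RNA was sequenced in 10 libraries from wild-type male CD1 mice (the strain field of the labels reads Mixed) with pancreatitis from 4 cycles of caerulein at 250 μg/kg and at most 2 days of recovery. Caerulein is a cholecystokinin analog that overstimulates acinar cells. All cells were sorted as Cd45-neg and EpCAM+, and Siglec f then divided them into tuft cells (Siglec f+, 5 libraries) and non-tuft epithelial cells (Siglec f-neg, 5 libraries). Both cell types were sorted from 5 mice, and each tuft library held 100 cells of 1 mouse. For non-tuft epithelial cells the paper gives an equivalent number. No uninjured pancreas was among the samples. The age of the mice is not given in the sources used here. Cells positive for DAPI or Annexin V were removed in the sort, so all values come from cells that passed a gate on a stain for dying cells.

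Cells die by apoptosis along an extrinsic path, in which ligands of the TNF family bind receptors that recruit adaptors and caspase-8, and along an intrinsic path, in which BH3-only proteins set BAX and BAK free to open the mitochondrial outer membrane. Both paths end in the executioner caspases. Inhibitor of apoptosis proteins hold back caspases, and the survival proteins of the BCL-2 family hold back BAX and BAK. When caspase-8 is blocked, the kinases RIPK1 and RIPK3 can direct a lytic death called necroptosis, and NAIP proteins detect bacterial proteins in the cytosol and start the inflammasome, which activates caspase-1. In the pancreas, acinar cell apoptosis and necroptosis have both been described in caerulein pancreatitis. Tuft cells are chemosensory epithelial cells that form in the injured pancreas.

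The labelled cell types were checked against marker genes before the comparison. All 15 listed tuft markers were higher in tuft cells. Siglecf is among the 15, and as the cells were sorted on its protein, it is no check of the labels. Of 17 acinar markers 14 were lower, although the summed acinar level was still 63.9 to 139 in tuft libraries against 169 to 189 in non-tuft libraries (sum of log2 values). Tuft markers were also present in non-tuft libraries 1, 2 and 5, where the median marker reached 1.94%, 5.7% and 9.33% of its mean in tuft cells on the linear scale, against 0% in non-tuft libraries 3 and 4. Both libraries numbered 5 held fibroblast and B cell transcripts, with Dcn at 6.84 in tuft library 5 and at 8.34 in non-tuft library 5, and Cd79a at 3.56 and 5.23. B cell transcripts were also listed in other tuft libraries. Cd79a was at 2.35 and 3.38 in tuft libraries 1 and 4, and Cd79b at 4.38, 3.15 and 3.95 in tuft libraries 1, 3 and 4. Of 14 islet markers 5 were called lower in tuft cells (summed log2 of 6.86 to 23.1 against 14.0 to 95.3), of 14 ductal markers 2 were called lower (57.5 to 62.7 against 61.7 to 90.5), and of 15 dissociation and stress genes 2, Jun and Ier3, were called lower (32.4 to 68.2 against 55.1 to 75.4). The part of these differences in the results was not tested. Of 13 listed leukocyte markers, 1 (Ptprc, which encodes Cd45) was higher in tuft cells, and of the 11 eosinophil markers only Siglecf was listed. The lowest value of a library was 0 in 9 libraries and 0.169 in non-tuft library 2, and 12.6% to 22.7% of all genes in tuft libraries and 11.9% to 30.9% in non-tuft libraries lay at that floor. Without read counts the sequencing depth of these libraries is unknown, and a gene at the floor is only listed at that value.

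Tuft cells differed from non-tuft epithelial cells in a small number of these genes, by calls that require a fold over 4. Bcl2l14, a BCL-2 family gene, Ripk3, the kinase of necroptosis, Tnfrsf25, a TNF receptor with a death domain, and the flagellin and secretion system sensors Naip5 and Naip2 had higher levels in all 5 tuft libraries than in all 5 non-tuft libraries. Tnfrsf19, a TNF receptor family member without a death domain, was listed at 0 in all 5 tuft libraries and was detected in all 5 non-tuft libraries. Calls were made with limma at a Benjamini-Hochberg adjusted p under 0.05 over all genes and a fold over 4 in the normalised level, given as log2(RPKM + 1). By this rule 6 of the 60 genes (10%) were higher in tuft cells, where 4.32% of all listed genes were, and 1 (1.67%) was lower, where 3.99% of all genes were. With the adjusted p alone 8 were higher, against 6.19% of all genes, and 1 was lower, against 5.55%. The groups did not overlap for 6 genes with tuft cells above (6.31% of all genes) and for 2 with tuft cells below (5.12%).

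**Figure D1:**
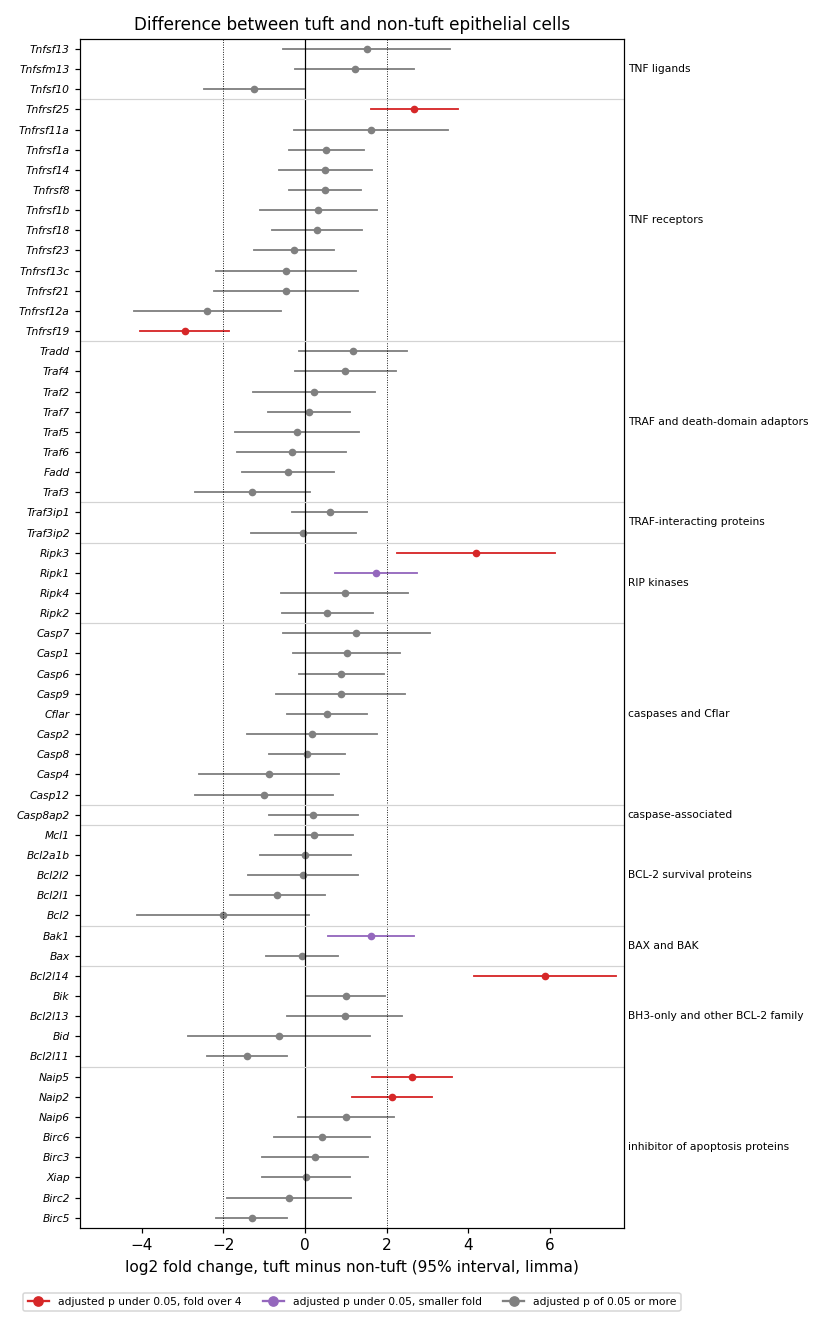
Difference in mean log2(RPKM + 1) between tuft and non-tuft libraries for 59 of the 60 genes, grouped by role, with the 95% interval of limma as a line and dotted lines at a fold of 4. Most points are grey and lie between the dotted lines; Bcl2l14 is farthest to the right at 5.87 and Tnfrsf19 farthest to the left at -2.95.

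The remaining genes had an adjusted p of 0.05 or more. The median log2 fold change was 0.27 over the 60 genes and 0.02 over all listed genes, with 39 genes above 0 and 21 below. Of the 60, 26 (43.3%) were above the floor in all 10 libraries, compared with 50.2% of all genes. An unadjusted p under 0.05 was found for 23.3% of them and for 25.1% of all genes. Scaling bears on these directions. Of all called genes 52.0% were higher in tuft cells, and this share was 86.0% when each library was centred on 76 ribosomal protein genes, which moved the median difference of all genes from 0.02 to 0.85. Under that scaling 9 of the 60 genes were called higher, where 11.2% of all genes were, and 1 lower, where 1.82% of all genes were. The genes called in the main comparison were all among them. With non-tuft libraries 1, 2 and 5 left out because they held tuft markers, only 2 non-tuft libraries remained. Of the 60 genes 2 (Bcl2l14 and Ripk3) were called higher and 1 (Tnfrsf19) lower, against 3.66% and 2.66% of all genes. The differences were then 2.71 for Tnfrsf25, 2.25 for Naip5 and 2.19 for Naip2, at adjusted p of 0.0775, 0.0694 and 0.0653 in limma. In bulk RNA a lower share of expressing cells and less RNA per cell cannot be told apart.

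**Figure D2:**
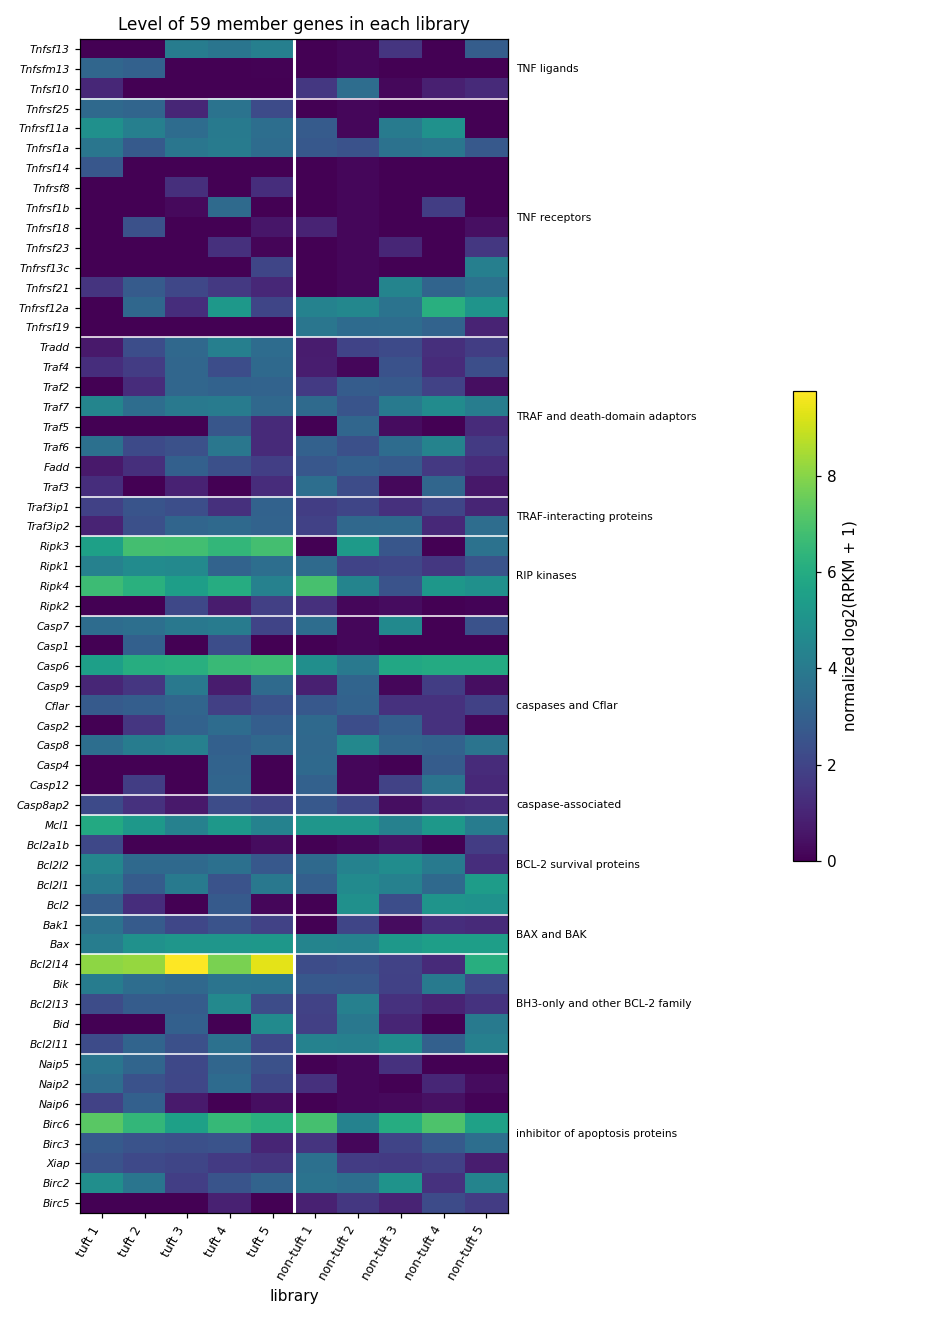
Level of 59 of the 60 genes (rows, grouped by role) in each library (columns), with color giving normalised log2(RPKM + 1) from 0 to 9.76. Bcl2l14 and Ripk3 form bright rows in the 5 tuft libraries, and Tnfrsf19 is dark in all of them; many other rows vary as much within a group as between the groups.

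The sequence before the start site is shown for 4 of the called genes: the BCL-2 family gene, the necroptosis kinase, and the receptors called higher and lower. The windows are from RefSeq, matched to genome build NCBIM37 (mm9), 5′ to 3′ on the strand of the gene, with CpG dinucleotides in capitals. They cover chr6:134346097-134346335 for Bcl2l14 (+ strand), chr14:56407695-56407944 for Ripk3 (- strand), chr4:151489793-151490042 for Tnfrsf25 (+ strand) and chr14:61665693-61665942 for Tnfrsf19 (- strand).
Bcl2l14: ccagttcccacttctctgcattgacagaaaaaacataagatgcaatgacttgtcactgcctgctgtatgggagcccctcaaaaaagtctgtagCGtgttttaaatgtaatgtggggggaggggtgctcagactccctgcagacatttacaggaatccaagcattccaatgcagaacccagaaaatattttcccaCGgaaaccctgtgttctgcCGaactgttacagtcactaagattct
Ripk3: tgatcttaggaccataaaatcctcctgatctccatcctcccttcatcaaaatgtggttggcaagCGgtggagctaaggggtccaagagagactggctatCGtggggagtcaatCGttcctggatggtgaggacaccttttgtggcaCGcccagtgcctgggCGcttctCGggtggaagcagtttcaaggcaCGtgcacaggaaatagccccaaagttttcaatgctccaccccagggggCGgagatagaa
Tnfrsf25: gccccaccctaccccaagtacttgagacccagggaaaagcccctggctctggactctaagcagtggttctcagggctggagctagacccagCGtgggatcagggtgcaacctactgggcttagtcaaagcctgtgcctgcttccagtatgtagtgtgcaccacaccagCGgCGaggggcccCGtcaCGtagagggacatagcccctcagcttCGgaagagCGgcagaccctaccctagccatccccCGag
Tnfrsf19: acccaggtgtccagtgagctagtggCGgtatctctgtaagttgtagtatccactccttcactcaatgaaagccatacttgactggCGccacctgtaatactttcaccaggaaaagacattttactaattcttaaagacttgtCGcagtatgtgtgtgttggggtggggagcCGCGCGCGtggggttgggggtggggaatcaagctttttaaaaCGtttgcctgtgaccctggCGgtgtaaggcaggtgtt
These windows held 3, 8, 8 and 9 CpG dinucleotides, in the order shown, at a GC content of 45.6%, 54.0%, 61.6% and 50.0%. Over all 32536 promoter windows the median was 6 CpG, and over the 64 windows of the 53 matched genes of the set it was 11. None of the 4 windows shown contained ATGCAAAT (the octamer bound by POU factors), TATAAA or the NF-kB consensus on either strand. Among the called genes, the NF-kB consensus was in another RefSeq window of Tnfrsf25 and in a window of Naip5, and TATAAA was in a window of Naip5. In the whole set the octamer was in 0 of 64 windows and in 1.62% of all windows, the NF-kB consensus in 12.5% and in 7.28%, and TATAAA in 6.25% and in 12.3%. A match is a run of letters in the window and no measure of binding.

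Among the TNF family ligands, 3 were listed and none passed the test. Tnfsf13 (APRIL, a survival factor for B cells and plasma cells) was listed at 0 in tuft libraries 1 and 2 and at 4.08, 3.81 and 4.20 in tuft libraries 3, 4 and 5. Its non-tuft values were 0, 0.17, 1.50, 0 and 2.86, and the difference of 1.51 (standard error 0.95) had an adjusted p of 0.357 in limma. Tnfsfm13, which was singled out after its values were seen, was the mirror image of this pattern in tuft cells. It was at 3.21 and 3.02 in tuft libraries 1 and 2 and at 0, 0 and 0.04 in the others. The annotation held no position for Tnfsfm13. Of the 50-base windows of the Tnfsf13 transcript, 51.9% also occur in BC096441, so reads of Tnfsf13 can be split between symbols. Whether this bears on the values of Tnfsfm13 was not tested. Tnfsf10 (TRAIL, a ligand of death receptors; also named after its values were seen) was listed at 1.08, 0, 0, 0 and 0 in tuft cells and at 1.60, 3.49, 0.21, 0.87 and 1.17 in non-tuft epithelial cells. Its difference of -1.25 (standard error 0.57) did not pass (adjusted p = 0.186 in limma).

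The receptors held the gene called lower as well as one of those called higher. Tnfrsf25 (death receptor 3, the receptor of the ligand TL1A; chromosome 4, 151490043 to 151494228, + strand) was at 3.34, 3.18, 1.06, 3.73 and 2.24 in tuft libraries 1 to 5 and at the floor of every non-tuft library. All tuft values lay above all non-tuft values, with tuft library 3 lowest. Genes with an RPKM variance under 1 had been removed by the authors, so Tnfrsf25 could be listed only through its tuft values. Its p-values are not independent of that filter. The difference in mean log2(RPKM + 1) was 2.68 (standard error 0.49, adjusted p = 0.00339 in limma; exact permutation test, two-sided, p = 0.00794). With 5 libraries a group this is the smallest value the permutation test can give. The permutation test takes the libraries as unpaired, which the sources do not settle. With the replicate number as a block the adjusted p of Tnfrsf25 was 0.00991 in limma. Tnfrsf19 (TROY, known for its expression in epithelial progenitor cells; chromosome 14, 61582671 to 61665692, - strand) was listed at 0 in every tuft library and at 3.82, 3.42, 3.44, 3.10 and 0.98 in non-tuft libraries 1 to 5. Non-tuft library 5 was the lowest of its group. This was a difference of -2.95 (standard error 0.51, adjusted p = 0.00219 in limma; exact permutation p = 0.00794), and it was -3.45 with both libraries numbered 5 left out. By the same filter Tnfrsf19 could be listed only through its non-tuft values, and its p-values carry the same limit.

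Of the other 10 receptors none passed the adjusted p in the fit without a replicate block. Tnfrsf12a (FN14, receptor of the ligand TWEAK and induced by tissue injury), the receptor with the highest mean, was at 0, 3.27, 1.26, 5.21 and 2.03 in tuft cells and at 4.34, 4.51, 3.70, 6.14 and 5.06 in non-tuft epithelial cells. Tuft library 4 lay within the non-tuft range, and the difference of -2.39 (standard error 0.83) had an adjusted p of 0.0844 in limma. Without tuft library 4 it was -3.11, with an adjusted p of 0.0153. With the replicate number as a block the adjusted p was 0.0279, which calls Tnfrsf12a lower in tuft cells. Tnfrsf1a (TNFR1, the ubiquitous receptor of TNF) overlapped between the groups, at 2.78 to 4.05 in tuft cells and 2.44 to 3.82 in non-tuft epithelial cells, and its difference was 0.52 (95% interval -0.40 to 1.44). Tnfrsf13c, the BAFF receptor of B cells, was named after its values were seen: it was above the floor only in tuft library 5 (2.04) and non-tuft library 5 (4.20). The B cell gene Cd79a was at 3.56 and 5.23 in these libraries. It was also at 2.35 and 3.38 in tuft libraries 1 and 4, where Tnfrsf13c was listed at 0. Whether B cells gave the Tnfrsf13c values was not tested.

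None of the 8 TRAF and death-domain adaptors passed the test, and their median difference was -0.06. Tradd, the adaptor of TNFR1, was at 0.67, 2.30, 3.29, 4.21 and 3.45 in tuft cells and at 0.76, 1.96, 2.20, 1.31 and 1.79 in non-tuft epithelial cells. The groups overlapped through tuft library 1, and the difference was 1.18 (standard error 0.61, adjusted p = 0.254 in limma). Without tuft library 1 it was 1.71, at an adjusted p of 0.046. Fadd, which links death receptors to caspase-8, had a difference of -0.42 (95% interval -1.55 to 0.71), which was 0.41 with ribosomal protein centring. Traf2, the adaptor that brings ubiquitin ligases to TNF receptors, had a difference of 0.22 (95% interval -1.27 to 1.72). Traf7, the adaptor with the highest mean, ranged from 3.29 to 4.45 in tuft cells and from 2.53 to 4.70 in non-tuft epithelial cells. Of the genes named for binding partners, Traf3ip2 (ACT1, the adaptor of IL-17 family receptors) differed by -0.04 (95% interval -1.32 to 1.25) and Casp8ap2 by 0.20 (95% interval -0.89 to 1.30).

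All 4 RIP kinase genes had a positive difference, with a median of 1.35, and 2 of them passed the adjusted p. Ripk3 (chromosome 14, 56403833 to 56407694, - strand), which phosphorylates MLKL in necroptosis, was at 5.56, 6.84, 6.82, 6.45 and 6.86 in tuft libraries 1 to 5. In non-tuft libraries 1 to 5 it was at 0, 5.32, 2.60, 0 and 3.66, so that non-tuft library 2 came close to the lowest tuft library. The groups did not overlap, and the difference was 4.19 (standard error 0.90, adjusted p = 0.00784 in limma; exact permutation p = 0.00794). In linear terms non-tuft library 2 held 41.3% and non-tuft library 5 held 12.3% of the mean Ripk3 level of tuft cells, against 5.7% and 9.33% for the median tuft marker. Without non-tuft libraries 1, 2 and 5 the difference was 5.21 (adjusted p = 0.00906), and with 0.1 added before taking logs in place of 1 the adjusted p was 0.056. Mlkl, the substrate of the kinase, was not among the listed genes.

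Ripk1 (chromosome 13, 34094232 to 34127039, + strand), the kinase that acts below TNFR1 in survival and in death, was at 4.28, 4.70, 4.59, 3.12 and 3.51 in tuft cells and at 3.38, 1.95, 2.09, 1.60 and 2.50 in non-tuft epithelial cells. Tuft library 4 fell below non-tuft library 1, so the groups overlapped. The difference of 1.73 (standard error 0.47) passed the adjusted p in limma (0.028) and was below a fold of 4. When each library was left out in turn, the adjusted p ranged from 0.0146 to 0.0748, and it was 0.05 or more when any of tuft libraries 1 to 3 or of non-tuft libraries 2 to 4 was absent. Ripk4, a kinase of epithelial differentiation, had the highest mean of the family and overlapped between the groups (difference 0.97, adjusted p = 0.446 in limma). Ripk3 made up a median of 54.0% of the summed linear RPKM of the 4 kinases in tuft libraries (27.7% to 78.4%), and 26.0% in non-tuft libraries (0% to 62.9%), where Ripk4 made up 63.5% (32.3% to 94.5%).

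**Figure D3:**
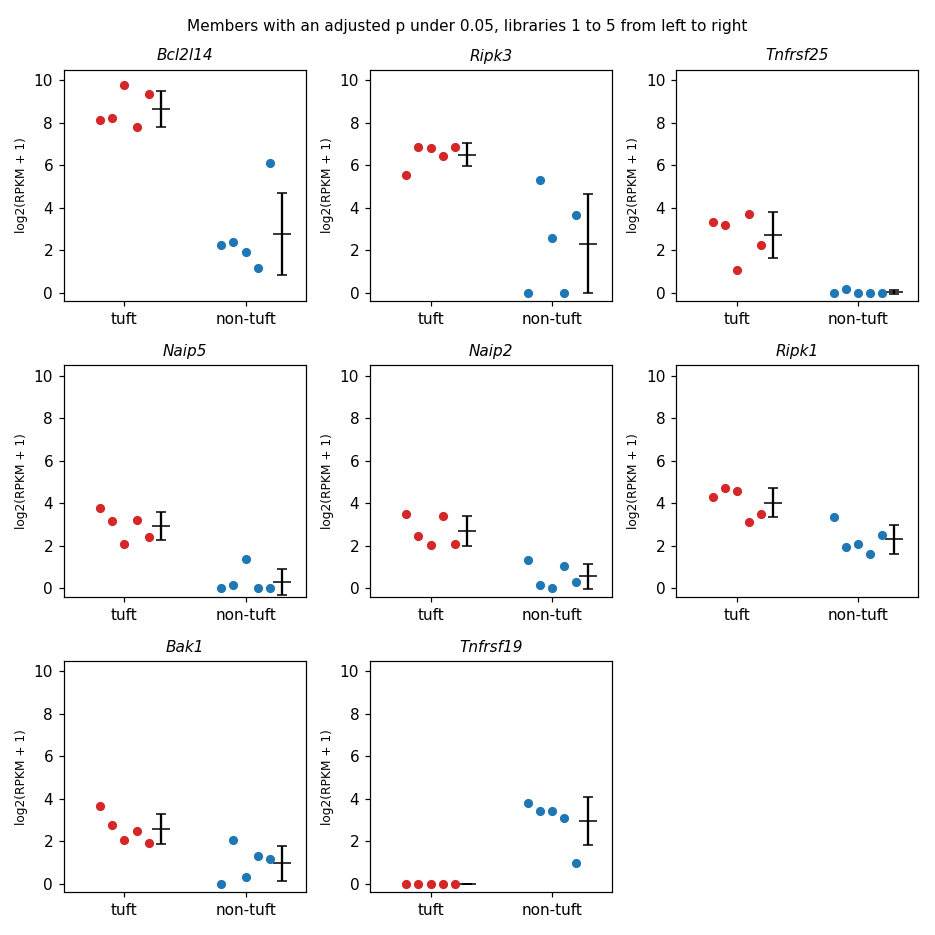
Level of 8 genes with an adjusted p under 0.05, as normalised log2(RPKM + 1) in each library (points, libraries 1 to 5 from left to right), with the mean and 1 SD of each group of 5 beside them. Non-tuft library 5 stands above the rest of its group for Bcl2l14 at 6.11 and below it for Tnfrsf19 at 0.98.

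Neither Cflar nor any of the caspases named here passed the adjusted p. Casp6, an executioner, had the highest mean of the caspases, at 5.49 to 6.70 in tuft cells and 3.94 to 5.98 in non-tuft epithelial cells (difference 0.89, standard error 0.48, adjusted p = 0.28 in limma). Casp8, the initiator of the extrinsic path, was at 2.98 to 4.24 and 3.05 to 4.54, and its difference of 0.05 had a 95% interval of -0.87 to 0.97. Casp9, the initiator of the intrinsic path, was at 0.75 to 3.93 and 0.18 to 3.13 (difference 0.87, adjusted p = 0.508). Cflar, which blocks caspase-8 at the receptor, was at 1.84 to 3.18 and 1.41 to 3.06 (difference 0.54, 95% interval -0.44 to 1.52). Casp1, the inflammasome caspase, was above the floor in tuft libraries 2 (2.99) and 4 (2.29) and in none of the others (difference 1.02, adjusted p = 0.328 in limma), and was added to the named genes after its values were seen because the NAIP genes act through it.

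In the BCL-2 family, Bcl2l14 was by far the highest gene of tuft cells. Bcl2l14 (BCL-G; chromosome 6, 134346336 to 134388754, + strand) was at 8.11, 8.23, 9.76, 7.79 and 9.35 in tuft libraries 1 to 5. In non-tuft libraries 1 to 5 it was at 2.25, 2.39, 1.94, 1.18 and 6.11, with library 5 far above the others. The difference was 5.87 (standard error 0.80, adjusted p = 0.000438 in limma; exact permutation p = 0.00794), and it ranged from 5.48 to 6.71 when each library was left out in turn. It was the highest of the 60 genes in all 5 tuft libraries, where it ranked between 55 and 265 among the 12160 listed genes. Non-tuft library 5, where it was also the highest of the 60 genes and ranked 890, held 14.7% of the mean tuft level in linear terms, and the other non-tuft libraries held 0.273% to 0.914%. For the median tuft marker the value in non-tuft library 5 was 9.33%. In linear RPKM, Bcl2l14 alone made up 60.6% to 89.1% of the summed level of the 12 family genes of the set in tuft libraries and 0.786% to 28.1% in non-tuft libraries. Family genes that the symbol rule does not match were left out of this sum. One of them, Bok, was at 0 to 4.46 in tuft cells and 5.07 to 6.98 in non-tuft epithelial cells. None of the 50-base windows of its longest transcript occurs in an annotated protein-coding transcript of another gene. Other transcripts and the rest of the genome were not searched.

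None of the 5 survival genes passed the test. Mcl1, the survival gene with the highest mean, was at 4.30 to 5.93 in tuft cells and 4.10 to 5.20 in non-tuft epithelial cells (difference 0.23, 95% interval -0.73 to 1.18). Bcl2l1 (BCL-XL) was at 2.49 to 4.03 and 2.94 to 5.38 (difference -0.68, 95% interval -1.84 to 0.48). Bcl2 was at 2.86, 1.29, 0, 2.78 and 0.19 in tuft cells and at 0, 4.90, 2.29, 5.06 and 4.96 in non-tuft epithelial cells. The difference of -2.02 (standard error 0.98) had an adjusted p of 0.22 in limma, and without non-tuft library 1, the only one of its group at 0, it was -2.88 with an adjusted p of 0.0384.

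Of the pore-forming proteins, Bax was at 4.12 to 5.18 in tuft cells and at 4.34 to 5.47 in non-tuft epithelial cells (difference -0.08, 95% interval -0.96 to 0.80). Bak1 (chromosome 17, 27156755 to 27165954, - strand) was at 3.66, 2.79, 2.07, 2.49 and 1.93 in tuft cells and at 0, 2.05, 0.32, 1.29 and 1.17 in non-tuft epithelial cells. Tuft library 5 lay below non-tuft library 2, and the difference of 1.62 (standard error 0.49) had an adjusted p of 0.0496 in limma, which was between 0.0585 and 0.107 when any 1 library except non-tuft library 2 was left out and 0.0802 with the replicate number as a block. The gene lies wholly within Ggnbp1 on the opposite strand, which is not listed, and 5.56% of the 50-base windows of its transcript also occur in the Ggnbp1 transcripts; the kit keeps no strand, so reads from that shared part cannot be assigned to one of these genes. Among the BH3-only genes, Bid, which caspase-8 cleaves to join the extrinsic to the intrinsic path, was at 0, 0, 2.98, 0 and 4.66 in tuft cells and at 1.84, 3.89, 1.01, 0 and 4.03 in non-tuft epithelial cells (difference -0.63, adjusted p = 0.754 in limma). Its direction turned with ribosomal protein centring (0.20) and without non-tuft libraries 1, 2 and 5 (1.02), and 24.5% of its 50-base windows are shared with Bcl2l13. Bcl2l11 (BIM) and Bik, named after their values were seen, differed by -1.41 (adjusted p = 0.0641) and 1.00 (adjusted p = 0.172).

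Among the inhibitor of apoptosis genes, 2 of 8 were called higher and none lower, and those called higher belong to the NAIP sensors. Naip5 (chromosome 13, 100981694 to 101016278, - strand), whose protein binds bacterial flagellin, was at 3.78, 3.17, 2.11, 3.21 and 2.41 in tuft cells and at 0, 0.17, 1.38, 0 and 0 in non-tuft epithelial cells. Naip2 (chromosome 13, 100914018 to 100972047, - strand), whose protein binds the rod protein of bacterial type III secretion systems, was at 3.50, 2.45, 2.06, 3.40 and 2.11 in tuft cells and at 1.34, 0.17, 0, 1.03 and 0.32 in non-tuft epithelial cells. For both genes every tuft library lay above every non-tuft library. The difference was 2.63 for Naip5 (standard error 0.45, adjusted p = 0.00212 in limma) and 2.14 for Naip2 (standard error 0.45, adjusted p = 0.0073 in limma), with an exact permutation p of 0.00794 for each. Naip2 fell just below a fold of 4 without non-tuft library 3 (1.99) and without tuft library 1 (1.94) or 4 (1.96), at adjusted p up to 0.0208. These genes are neighbours with similar sequence: 33.0% of the 50-base windows of Naip5 also occur in another gene, mostly Naip6, and 18.3% of those of Naip2, mostly Naip1, so the division of reads between paralogs is uncertain. Naip6, named after its values were seen, was at 0 to 2.99 in tuft cells and 0 to 0.44 in non-tuft epithelial cells (difference 1.00, adjusted p = 0.278 in limma).

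The classical inhibitors did not pass the test. Birc6, a very large ubiquitin ligase, had the highest mean of all 60 genes, at 5.56 to 7.25 in tuft cells and 4.33 to 7.02 in non-tuft epithelial cells (difference 0.42, 95% interval -0.75 to 1.60). Xiap, a direct inhibitor of caspases, was at 1.47 to 2.48 and 0.79 to 3.59, with a difference of 0.03 (95% interval -1.05 to 1.11). Birc5 (survivin), which is best known for its part in cell division, was at 0, 0, 0, 0.89 and 0 in tuft cells and at 0.89, 1.59, 0.97, 2.24 and 1.74 in non-tuft epithelial cells. The groups touched without overlapping (exact permutation p = 0.00794). Its difference of -1.31 (standard error 0.40) had an adjusted p of 0.0511 in limma, which went under 0.05 without non-tuft library 1 (0.0407), non-tuft library 3 (0.0437) or tuft library 4 (0.0353) and with the replicate block (0.0496).

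**Figure D4:**
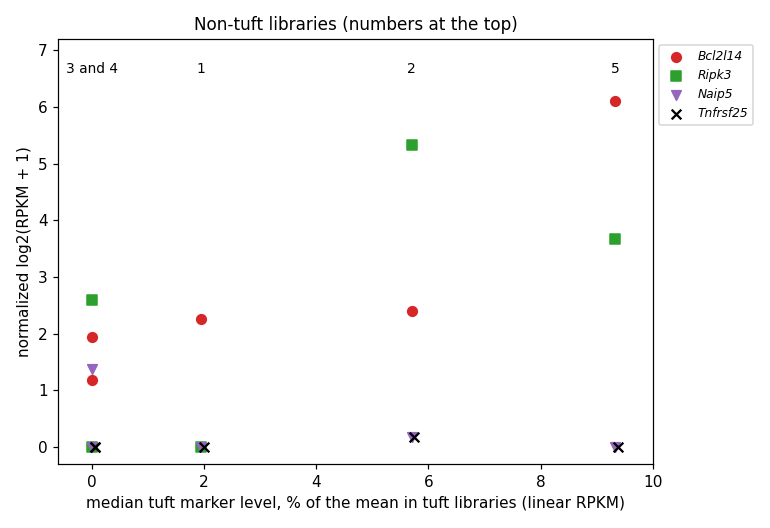
Level of 4 called genes (normalised log2(RPKM + 1)) in the 5 non-tuft libraries, placed by the median level of 13 tuft markers in the same library as a percentage of their mean in tuft libraries. Bcl2l14 was highest, at 6.11, in the library with the highest marker share of 9.33%, and Ripk3 was highest, at 5.32, in the library with a share of 5.7%.

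The levels in non-tuft libraries of Ripk1 and the genes called higher were set beside the tuft marker level of the same libraries. In non-tuft libraries 3 and 4, where the median tuft marker was at 0% of its tuft mean, Ripk1 was at 19.2% and 12.1% and Ripk3 at 5.34% and 0% of the mean tuft level. Bcl2l14 was at 0.613% and 0.273% in the same libraries and Tnfrsf25 at 0% in both, and Naip2 was at 0% and 16.9%. Naip5 was at 21.9% in non-tuft library 3 and at 0% in non-tuft libraries 1, 4 and 5. The part of tuft cells in the non-tuft values was not tested.

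Other genes of the same pathways were counted from 4 lists that leave the 60 genes out. Of 103 listed genes, tuft cells had 4 called higher and 5 lower, with a median difference of 0.09, against 4.32% and 3.99% of all genes. Among 51 apoptosis genes, 3 were called higher and 2 lower, and only the 3 with the smallest p are named. Cideb, a CIDE family protein also known for lipid droplets and lipoproteins, was at 5.68 to 7.02 in tuft cells and 0 to 2.82 in non-tuft epithelial cells (difference 5.18, adjusted p = 0.000178 in limma). Vdac3, a channel of the mitochondrial outer membrane, was also higher (2.51, adjusted p = 0.00536), and Bok, a BAX-like protein whose symbol the rule does not match, was lower (-4.20, adjusted p = 0.00413), at 0 to 4.46 against 5.07 to 6.98. Of 36 genes of TNF and NF-kB signaling, 1 was called higher and 2 lower. Relb, a subunit of noncanonical NF-kB, was at 0 to 1.76 in tuft cells and 3.56 to 4.81 in non-tuft epithelial cells (difference -3.95, adjusted p = 0.000117 in limma). Optn and Tax1bp1, ubiquitin-binding autophagy receptors that act on TNF signaling, differed by 2.92 (adjusted p = 0.00251) and 1.70 (adjusted p = 0.0068). Of 11 necroptosis and inflammasome genes, Nod1, a sensor of bacterial peptidoglycan, was called lower (-2.09, adjusted p = 0.0268), and Txnip was lower without reaching a fold of 4 (-1.97, adjusted p = 0.00342). Gsdmd, the pore-forming substrate of caspase-1, did not pass (1.22, adjusted p = 0.0845), nor did Nlrc4, which joins NAIP proteins in the inflammasome and was added after its values were seen (0.53, adjusted p = 0.671). None of the 5 listed genes of the TNF superfamily with other symbols passed. The smallest p values among them belonged to Edaradd (-1.38, adjusted p = 0.0806), Ngfr (1.06, adjusted p = 0.195) and Ltbr (0.90, adjusted p = 0.229).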

How the data were processed

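RNA from 10 libraries was made by Smart-Seq2 from polyA RNA and sequenced as 50 bp single-end reads. According to the study's methods and the submitters' processing notes, the authors mapped reads to mm9 with HISAT2, estimated RPKM with StringTie and Ballgown, removed genes with an RPKM variance under 1, and quantile normalized the log2 values. The deposited table holds these values, log2(RPKM + 1), for 12160 genes, beside the authors' fold changes, p-values and false discovery rates, which were not used. Quantile normalization gives every library the same distribution, and adding 1 makes fold changes of low genes too small.

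Groups and replicate numbers came from the labels. By the study's description both cell types came from 5 mice; whether equal numbers mark the same mouse is not given in the sources used here. The correlation of deviations from the group means was 0.0619 to 0.24 for equal numbers, above 0.1 for 3 of 5, and -0.174 to 0.139 for unequal numbers. In 8 of 10 libraries it was highest with the library of the same number. These values do not show that the libraries are unpaired. The main fit took them as unpaired because no source ties a number to a mouse, and a fit with the replicate number as a block was run beside it. The groups were compared over all genes by limma 3.58.1 (lmFit, then eBayes, no covariates; R 4.3.3), and single genes also with the exact two-sided permutation test over the 252 splits. That permutation test also took the libraries as unpaired, and no paired version was run, so its p-values hold only for unpaired libraries. The fit was tested on simulated data. The genes and lists were chosen with earlier results of these data known. The text names every gene that was called, had an adjusted p under 0.05 or did not overlap between groups, the gene with the highest mean of each role, genes fixed by role (such as Casp8, Bax and Fadd) and the 3 smallest p of each pathway list. The counts include 1 gene that is not reported here. Positions and transcripts came from GENCODE vM1 on NCBIM37 (59 of 60 genes) and promoters from RefSeq. Python 3.11.15 (pandas 2.3.3, scipy 1.17.1, matplotlib 3.10.9) was used for the rest. The alternatives were the replicate block, 0.1 or 10 added in place of 1, a mean log2 value of at least 2, ribosomal protein centring, eBayes with trend and robust settings, limma's treat, other thresholds and each library left out in turn. Leaving out non-tuft libraries 1, 2 and 5, leaving out both libraries numbered 5, and setting every floor to 0 were chosen after seeing the data.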

Additional observations from a re-analysis of the deposited data

Results flagged for a closer look

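A library far from the others of its group was looked for among the named genes with a gap test (Dixon's test at 95%), in 60 groups of 5 libraries, of which 5 were found. For normally distributed values chance alone marks about 1 in 20 groups. That rate does not hold where most libraries of a group lie at the floor, as for Birc5 in tuft cells and Naip5 in non-tuft epithelial cells. Bcl2l14 was at 6.11 in non-tuft library 5, above the other non-tuft libraries at 1.18 to 2.39, in the library with the highest tuft marker share (9.33%). Tnfrsf19 was at 0.98 in the same library, below the others at 3.10 to 3.82. Without that library the differences were 6.71 and -3.45. Naip5 was at 1.38 in non-tuft library 3, above the others at 0 to 0.17, and its difference without that library was 2.90. Birc5 was at 0.89 in tuft library 4 and listed at 0 in the other tuft libraries. Bax was at 4.12 in tuft library 1, below the others at 4.95 to 5.18. The part of other cells in these values was not tested.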

How the results depend on the processing

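In the main comparison 6 genes were called higher and 1 lower, 9 had an adjusted p under 0.05, 1010 of all genes were called, and 4 pathway genes were called higher and 5 lower. With 10 added in place of 1, the counts were 2 genes higher and 0 lower, and 278 of all genes. Of the pathway genes 1 was called higher and 1 lower, against 1.33% and 0.954% of all genes. With 0.1 added, 2 genes were called lower, against 4.46% of all genes. With genes under a mean log2 of 2 removed, 31 of the 60 were tested, and 3 were called higher, 0 lower and 5 by the adjusted p alone. Of all genes tested there, 5.79% were called higher and 4.73% lower. Ribosomal protein centring called 1577 of all genes. It called 12 pathway genes higher and 2 lower, against 11.2% and 1.82% of all genes. With limma's treat against a fold of 2, 2 genes were higher, 3 had an adjusted p under 0.05 and 420 of all genes were called. Treat called 2 pathway genes higher and 2 lower, against 1.97% and 1.48% of all genes. Of the 103 pathway genes, 8 were called lower at a fold of 2 or with no fold threshold, against 5.55% of all genes. At an adjusted p under 0.01, 2 were called lower, against 2.4% of all genes. Without non-tuft libraries 1, 2 and 5, 2 genes were called higher, 3 passed the adjusted p and 3 pathway genes were lower. Without both libraries numbered 5, 3 pathway genes were lower. The share of all genes called lower was 2.66% in the first of these fits and 2.99% in the second. Leaving out each library in turn gave 5 to 7 genes called higher, 1 to 2 called lower and 3 to 6 pathway genes called lower. Of all genes 3.68% to 4.38% were then called higher and 3.24% to 3.92% lower. Bcl2l14 and Tnfrsf19 stayed past the adjusted p in all alternatives run for them.

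With the replicate number as a block, 6 genes were called higher and 2 lower, against 4.26% and 4.04% of all genes. Tnfrsf12a was added (adjusted p = 0.0279 in limma), Bak1 lost its adjusted p (0.0802) and Birc5 gained one (0.0496). In 8 of 10 libraries the deviations correlated best with those of the same number. Both cell types came from 5 mice, and which libraries share a mouse is not given in the sources used here.

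Named genes that turned direction had an adjusted p over 0.05 in the main comparison. With ribosomal protein centring the differences were 0.15 for Bcl2l1, 0.41 for Fadd, 0.20 for Bid, 0.75 for Bax and 0.79 for Traf3ip2. Without non-tuft libraries 1, 2 and 5 they were -0.15 for Tnfrsf1a, -0.15 for Birc6, 1.02 for Bid, -0.20 for Traf2, -0.52 for Traf7 and 0.36 for Traf3ip2. Without both libraries numbered 5 they were -0.41 for Traf2, 0.05 for Traf3ip2 and -0.14 for Xiap. Traf2 was at -0.07 with 0.1 added and Xiap at -0.05 with 10 added. Over the libraries left out in turn the ranges were -0.01 to 0.40 for Mcl1, -0.07 to 0.50 for Casp8ap2, -0.16 to 0.76 for Traf2, -0.24 to 0.11 for Bax, -0.22 to 0.33 for Traf7, -0.10 to 0.30 for Casp8, -0.41 to 0.37 for Traf3ip2 and -0.26 to 0.44 for Xiap. Where a call changed, the cause was not tested. Since depth is unknown, no upper limit can be set for genes at the floor.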
